A study of Mus musculus with 4 samples.

Results

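The CDK inhibitors and G1 cyclins described here are 10 genes, 6 inhibitors (Cdkn1a, Cdkn1b, Cdkn1c, Cdkn2a, Cdkn2b and Cdkn2c) and 4 cyclins (Ccnd1, Ccnd2, Ccnd3 and Ccne1). They were taken by gene name from the 36918 genes with a usable probe on the array, and 20 probes carry these names. The set was chosen by measured values, the halofuginone changes in the cell lines K5 and K6, in which Cdkn1a was high after treatment in K6 and not in K5. Those changes are therefore given as values with no p, and counts of genes past a limit are given beside the share of all genes without being read as a result. All 10 were among the 19092 genes tested, which needed signal well above background on at least 2 of 4 arrays, and 9 of them had it on all 4.

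The samples were mouse pancreatic cancer cells of strain C57BL/6, profiled on 1-colour arrays. K5 and K6 each gave 1 control sample, treated with the solvent DMSO, and 1 sample treated with 100 nM halofuginone for 24 hours. What sets K5 apart from K6, and whether each is 1 clone, the labels do not say, nor do they name separate cultures. Halofuginone blocks prolyl-tRNA synthetase and so imitates a shortage of an amino acid.

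Passage from G1 into S phase depends on kinases held by cyclins. D-type cyclins (Ccnd1, Ccnd2, Ccnd3) activate Cdk4 and Cdk6, cyclin E (Ccne1) activates Cdk2, and these kinases release E2F transcription factors from the retinoblastoma protein family. The CIP/KIP inhibitors p21 (Cdkn1a), p27 (Cdkn1b) and p57 (Cdkn1c) bind cyclin-kinase complexes, whereas the INK4 inhibitors p16 (Cdkn2a), p15 (Cdkn2b) and p18 (Cdkn2c) bind Cdk4 and Cdk6 themselves. Loss of Cdkn2a function is a hallmark of pancreatic cancer, and Cdkn1a is the best known target of p53.

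All values are log2 of the processed signal relative to the 75th percentile of the array's spots, so 0 is that percentile, and a change is halofuginone minus control on this scale. Between 47.2% and 48.6% of spots on control arrays and between 53.1% and 54.0% on halofuginone arrays were well above background. Of 10 epithelial and ductal markers, 10 were well above background on all 4 arrays, as were 1 of 10 fibroblast and stellate markers (Acta2), 6 of 9 immune markers (Ptprc, Cd3e, Cd68, Cd14, Itgam and Csf1r), 0 of 6 endothelial, 2 of 8 acinar (Cela1 and Ctrb1) and 0 of 6 endocrine markers. The macrophage markers Lyz2 and Adgre1 were above background on no array. The summed linear level of the immune markers was 31.7 and 28.9 in the K5 and K6 controls and 14.1 and 10.5 after halofuginone. That of the acinar markers was 3.71 and 2.42 in the controls and 0.791 and 0.507 after halofuginone. The summed level of the endothelial markers was 0.0952 and 0.141 in the controls and 0.146 and 0.646 after halofuginone, highest in halofuginone K6, where 4 of 6 were well above background against 0, 1 and 1 on the other arrays. Those 4 were Pecam1, Kdr, Tek and Vwf, and the remaining endothelial markers, Cdh5 and Tie1, were above background on no array. The summed level of the epithelial markers was 918.2 and 706.0 in the controls and 968.4 and 979.6 after halofuginone, and the part of these shifts in the values below was not tested.

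**Figure D1:**
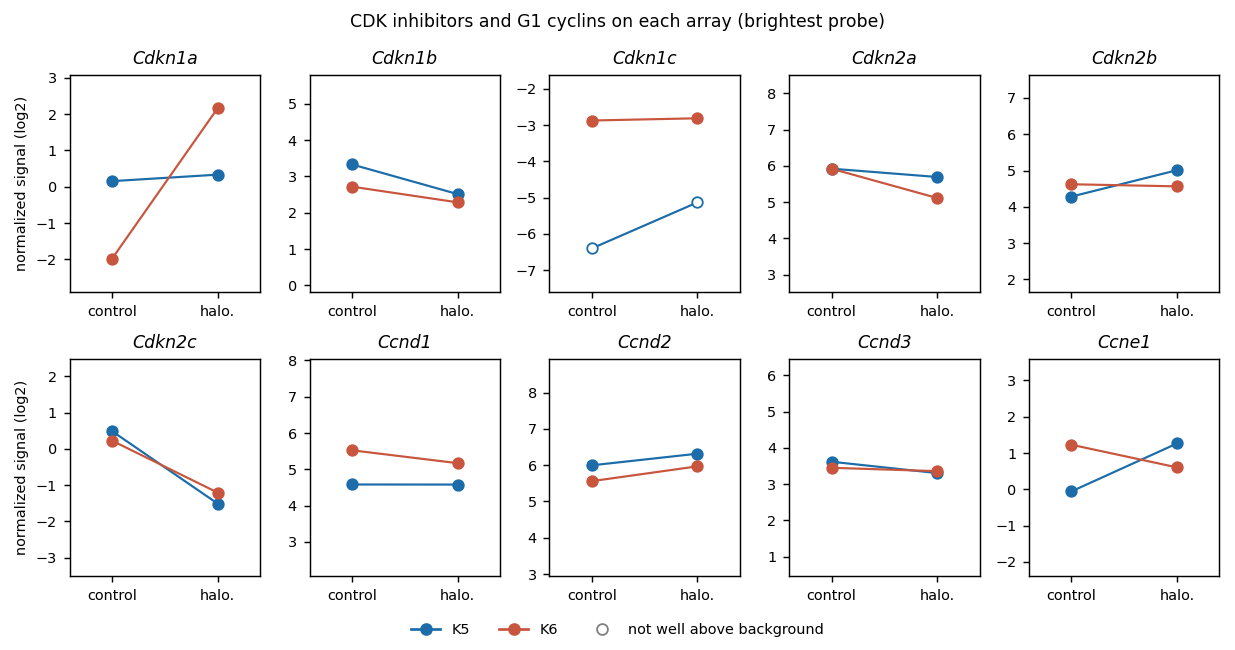
Normalized signal (log2) of the brightest probe of each gene, with control and halofuginone (halo.) arrays on the horizontal axis, 1 point per array, a line per cell line and open points where the signal was not well above background. Every panel spans the same range, so slopes can be compared but levels of different genes cannot. K6 climbs from -1.98 to 2.17 for Cdkn1a while K5 stays between 0.15 and 0.33, Ccne1 goes up in K5 and down in K6, and Cdkn2c slopes down in both.

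Of its own 4 arrays, the CIP/KIP inhibitor Cdkn1a read highest in halofuginone-treated K6 and lowest in control K6. Its brightest probe read 0.15 (control) and 0.33 (halofuginone) in K5, and -1.98 (control) and 2.17 (halofuginone) in K6. The change was 0.18 in K5, or 1.13-fold, and 4.15 in K6, or 17.8-fold. The lines thus differed on both sides of the treatment: control K6 read below control K5 by 4.40-fold, and halofuginone K6 above halofuginone K5 by 3.57-fold. The halofuginone arrays did not overlap the control arrays, as held for 5 of the 10 genes and 58.6% of all genes tested. The gap between the changes, K6 less K5, was 3.97, which ranked 94 among 19092 genes in that direction and 168 by size, and the middle 95% of genes lay between -2.04 and 1.85. The choice of genes used this gap, so its rank and its place outside that range are a description only. The gap rests on 1 spot per array and on no replicate of any condition.

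That probe is named for transcript NM_007669 and lies on mm9 chromosome 17 from 29237377 to 29237436. The other Cdkn1a probes, named for ENSMUST00000122348 (29235299 to 29235358) and for NM_001111099 (29227986 to 29228045), were well above background on no array, so neither gives a change. As read, the first of these stood at -6.50, -6.76 and -6.60 on the other arrays and at -5.14 in halofuginone K6, below that array's lowest signal well above background of -5.01. The second stood between -7.04 and -6.29 on all 4 arrays.

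Promoter sequences were taken from a RefSeq table (GRCm38.p6), in which 7 of the 10 genes were matched, with 11 windows before a start site. The promoters of Cdkn1c, Ccnd1 and Ccnd2 were not analysed here. Cdkn1a has 2 of the windows, 2790 bases apart, and both are shown because its change differed most between the lines. Each sequence holds the 250 bases before a start on the plus strand, with capitals for the motifs searched on both strands: GGGCGG, the core of SP1 sites, TATAA, the core of the TATA box, TTGCATCA, the amino acid response element, and the core of a p53 site, written CATG, then 6 bases of any kind, then CATG.
upstream start, chr17:29090729-29090978: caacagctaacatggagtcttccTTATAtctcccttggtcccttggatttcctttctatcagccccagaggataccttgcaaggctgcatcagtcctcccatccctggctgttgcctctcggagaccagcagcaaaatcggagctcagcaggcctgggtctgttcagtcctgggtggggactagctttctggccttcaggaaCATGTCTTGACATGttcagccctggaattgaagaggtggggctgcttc
downstream start, chr17:29093519-29093768: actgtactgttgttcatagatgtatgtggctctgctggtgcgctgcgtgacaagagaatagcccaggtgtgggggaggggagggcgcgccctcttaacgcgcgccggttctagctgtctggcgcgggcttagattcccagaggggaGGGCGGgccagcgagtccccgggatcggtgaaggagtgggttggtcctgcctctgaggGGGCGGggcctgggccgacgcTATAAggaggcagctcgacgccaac
The upstream window held the p53 core pattern from base 48 to base 35 before the start, a pattern found in 0.490% of 32851 windows of that length and in none of the other 10 windows of these genes. The downstream window held GGGCGG at 2 places (32.7% of all windows) and TATAA from base 25 to base 21 before the start (22.8%). The upstream window also had TATAA, on the opposite strand, from base 227 to base 223. TTGCATCA, present in 0.791% of all windows, was in none of the 11. No motif overlapped another in these sequences.

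Cdkn1b, which encodes p27, read lower after halofuginone at both of its probes and in both lines. The brightest probe (NM_009875, chromosome 6 from 134875424 to 134875483) was at 3.33 and 2.51 in control and halofuginone K5 and at 2.72 and 2.29 in K6, a change of -0.82 and -0.43. The dimmer probe, named for ENSMUST00000067327 and lying from 134873606 to 134873665, had changes of -1.64 in K5 and -2.09 in K6. The probes agreed in direction but not in size, nor in which line changed more. The dimmer probe read -4.64 in halofuginone K6, near that array's lowest signal well above background of -5.01, which limits its K6 change.

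Cdkn1c, which encodes p57, was well above background in K6 and not in K5. Its probe (NM_001161624, chromosome 7 from 150644297 to 150644356) read -6.40 and -5.13 in control and halofuginone K5, and -2.87 and -2.81 in K6. The K6 change was 0.06, and none is given for K5. Compared with the detection limits of the K5 arrays, K6 was at least 3.26-fold higher. In the limma fit of K6 against K5 on values as read, the difference was 2.92 (SE 0.40, 2 arrays a line, adjusted p = 0.093). It did not pass the threshold of 0.05. The choice of genes did not use this difference. It did use the gap between the K5 and K6 changes, on which the SE and p of this fit rest in part. With normexp background correction the difference was 1.21 (limma adjusted p = 0.016, from 0.016 to 0.52 over the settings). The gene entered the tested set through its K6 arrays alone, and the fit took K5 readings below background as measured, so no value of this test is taken as support for a difference.

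Among the INK4 inhibitors, Cdkn2c, which encodes p18, read at least 2-fold lower after halofuginone in both lines. Its brightest probe (NM_007671, chromosome 4 from 109333779 to 109333838) read 0.49 and -1.51 in control and halofuginone K5 and 0.22 and -1.21 in K6, a change of -2.00 and -1.43. A probe that overlaps it on the genome (U19596) gave -1.98 and -1.73, so these are not independent readings. The fitted change over both lines was -1.72, and it was lower in all settings tried. In the limma fit of halofuginone against control, 1 of the 10 genes was past the adjusted threshold of 0.05 (Cdkn2c), where 8.96% of all tested genes were, 5.08% lower and 3.88% higher, and nothing is read from that count because these values chose the genes. It did not hold without a filter on dim probes, without the line as a block or with dim values raised to a floor.

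Cdkn2a, the source of p16 and of p19ARF from another reading frame, was well above background on all 4 arrays at both of its probes. The brightest (NM_009877, chromosome 4 from 88920405 to 88920464) read 5.92 and 5.69 in control and halofuginone K5 and 5.92 and 5.11 in K6. The control arrays of the lines were thus equal to 2 decimals, and the changes were -0.23 and -0.81. The dimmer probe gave -0.20 and -0.84. Both probes carry the same transcript name, and whether they read the p16 transcript, the p19ARF transcript or both was not determined.

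Cdkn2b, the neighbour of Cdkn2a on chromosome 4 and the source of p15, read higher after halofuginone in K5 and not in K6. Its brightest probe (88952437 to 88952496) was at 4.28 and 5.01 in control and halofuginone K5 and at 4.62 and 4.56 in K6. The changes were 0.73 and -0.06 there, and 0.68 and -0.15 at the dimmer probe.

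The D cyclins changed less than 2-fold in either line. Ccnd1, cyclin D1, read 4.58 in both K5 arrays, 5.53 in control K6 and 5.17 in halofuginone K6, so both K6 arrays stood above both K5 arrays. Its K6 minus K5 difference was 0.77, or 1.70-fold (SE 0.27, 2 arrays a line, limma adjusted p = 0.32), and did not pass. The single probe lies on chromosome 7 from 152116202 to 152116261.

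Ccnd2, cyclin D2, read 6.00 and 6.32 in control and halofuginone K5 and 5.56 and 5.97 in K6. Its 3 probes on chromosome 6 had changes between 0.32 and 0.60 in K5 and between 0.41 and 0.62 in K6, each higher after halofuginone. Both K6 arrays stood below both K5 arrays at the brightest probe, by a difference of -0.39 (SE 0.26, 2 arrays a line, limma adjusted p = 0.51) that did not pass.

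Ccnd3, cyclin D3, read 3.62 and 3.31 in control and halofuginone K5 and 3.45 and 3.36 in K6. Its changes ran from -0.31 to -0.09 over the lines at the brightest probe, and an overlapping probe gave -0.29 and -0.08. A dimmer probe, named for ENSMUST00000182281, gave -0.63 in K5 and -0.69 in K6.

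Ccne1, cyclin E1, had changes of opposite sign in the lines. Its probe (NM_007633, chromosome 7, listed from 38882937 to 38882960) read -0.06 (control) and 1.26 (halofuginone) in K5, and 1.23 (control) and 0.60 (halofuginone) in K6. The change was 1.32 in K5, or 2.50-fold higher, and -0.63 in K6, or 1.54-fold lower. Control K6 stood 2.44-fold above control K5, close to the level that halofuginone K5 had. The gap between the changes was -1.95, the largest among the 4 cyclins and opposite in sign to that of Cdkn1a.

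**Figure D2:**
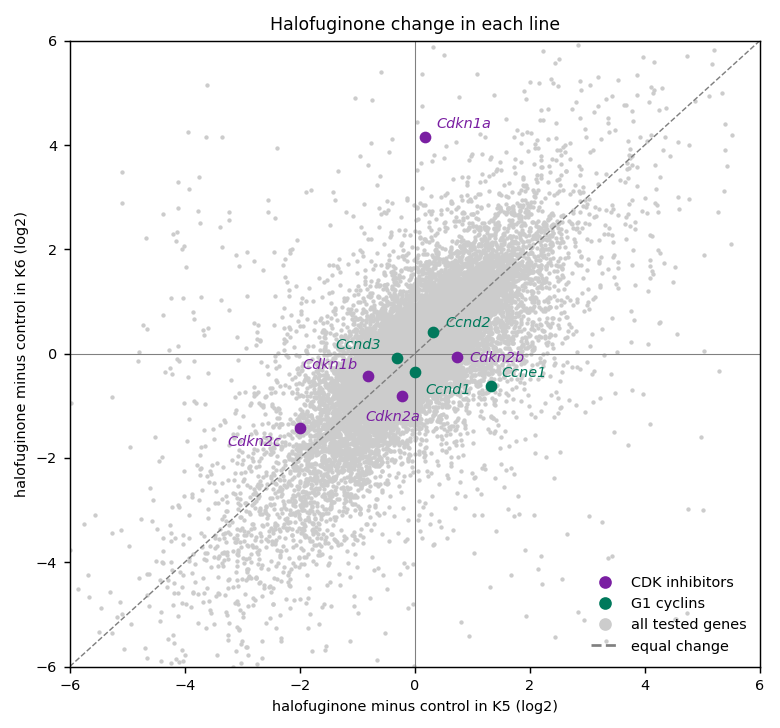
Halofuginone minus control (log2) in K5 on the horizontal and in K6 on the vertical axis, for all tested genes (grey; 64 lie outside the axes), CDK inhibitors (purple) and G1 cyclins (green). Cdkn1c is not drawn because its K5 arrays were not above background. Cdkn1a lies at 0.18 and 4.15, far above the dashed line of equal change, and Ccne1 lies below it at 1.32 and -0.63.

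Changes of at least 2-fold were counted at the brightest probe of a gene, where the brighter array was well above background. The dimmer Cdkn1b probe, with changes of -1.64 in K5 and -2.09 in K6, is thus not counted. In K5, 1 gene was at least 2-fold higher (Ccne1) and 1 lower (Cdkn2c), where 14.1% and 14.9% of all tested genes were. In K6, 1 was higher (Cdkn1a) and 1 lower (Cdkn2c), where 16.4% were higher and 16.4% lower. Counted on values as read, with no need of detection, the change differed at least 2-fold between the lines in 3 genes and in 18.8% of all genes tested. These were Cdkn1a, Ccne1 and Cdkn1c, and for Cdkn1c the K5 side is not a measured change. Over the 10 genes, with Cdkn1c as read, the changes had medians of 0.09 (K5) and -0.22 (K6), against -0.03 and 0.04 over all tested genes. These comparisons helped to choose the genes, and nothing is read from the counts.

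For K6 against K5, with treatment in the fit, 0 of the 10 genes passed (limma), where 0.173% of all tested genes did. At an unadjusted p under 0.05 there were 2, Cdkn1c and Ccnd1, where 15.5% of all tested genes were. Cdkn1a had a K6 minus K5 difference of -0.15 (SE 1.03, 2 arrays a line, limma adjusted p = 0.96), the mean of -2.14 between controls and 1.84 between halofuginone arrays. The K6 arrays of 3 genes, Cdkn1c, Ccnd1 and Ccnd2, did not overlap their K5 arrays, and those of 28.8% of all tested genes did not. Cdkn1c entered the tested set through its K6 arrays alone and is in both counts on K5 readings below background. The SE and p of each gene in this fit also rest in part on the gap between its K5 and K6 changes, which chose the genes. Neither count is therefore taken as support for a line difference.

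**Figure D3:**
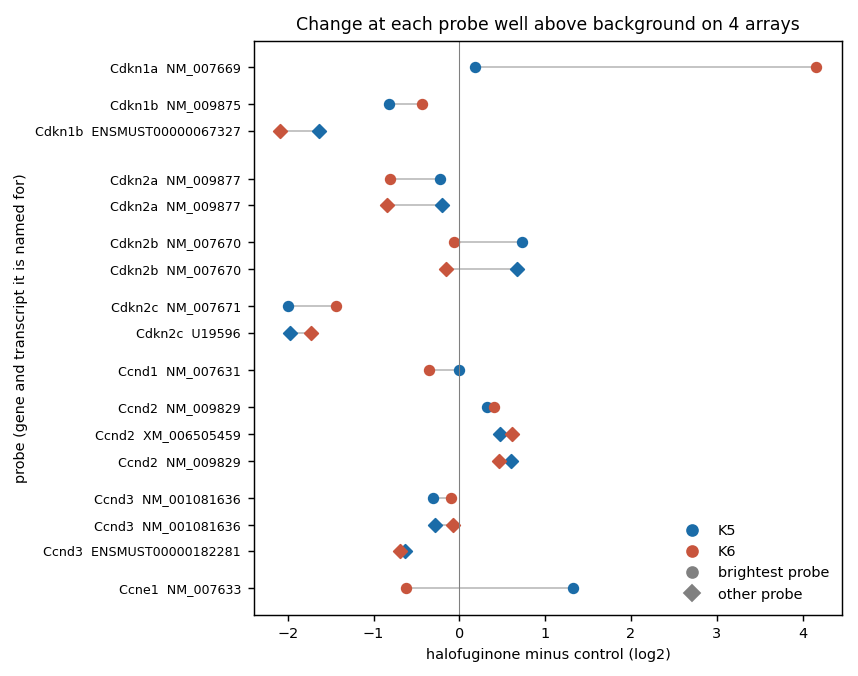
Halofuginone minus control (log2, horizontal axis) at each probe of these genes that was well above background on all 4 arrays, K5 in blue and K6 in red, with circles for the brightest probe of a gene and diamonds for the others. Probes of Cdkn2a, Cdkn2b, Cdkn2c, Ccnd2 and Ccnd3 have changes of the same sign within a gene and line, and the Cdkn1b probes differ in size, at -0.82 and -1.64 in K5.

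The genes whose pattern over the 4 arrays lay nearest to that of Cdkn1a were sought among 15895 others well above background on all 4, by Euclidean distance after each gene was centred on its own mean. Among the nearest were Klra2, 1700110K17Rik, Dusp5, a phosphatase of MAP kinases, Slc23a3 and Ndrg1, at distances between 0.98 and 1.02. Dusp5 read 2.42 and 2.87 in control and halofuginone K5 and 1.23 and 3.98 in K6, low in control K6 and high in halofuginone K6 as Cdkn1a was. The changes of these 5 genes lay between -0.40 and 1.14 in K5 and between 2.75 and 4.21 in K6. In control K6, 1700110K17Rik at -4.06 and Slc23a3 at -3.98 lay near that array's lowest signal well above background, -4.25. With 4 arrays such likeness is a description. A K6 change of at least 2-fold upward beside a K5 change under 2-fold was seen in 1154 of 15896 genes, or 7.26%.

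Of 42 tested partners of these genes in the G1 to S passage, 1 rose, 1 fell and 40 did not pass (limma, adjusted over all genes), where 3.88% of all tested genes rose and 5.08% fell. Myc, a transcription factor that promotes entry into S phase, rose by 2.21 (SE 0.32, 2 lines, adjusted p = 0.044), with 1.81 in K5 and 2.60 in K6. It read 2.41 and 4.22 in control and halofuginone K5 and 2.23 and 4.83 in K6. Its halofuginone arrays did not overlap its control arrays, as held for 58.6% of all genes tested. Rbl2, the retinoblastoma relative p130, fell by 2.37 (SE 0.27, 2 lines, adjusted p = 0.039). Its arrays read -1.09 and -3.30 in K5 and -1.65 and -4.19 in K6. Over the 42 partners the changes had medians of 0.31 (K5) and 0.40 (K6).

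The remaining partners named here did not pass. Rb1, the retinoblastoma gene, had changes of 1.24 in K5 and 1.54 in K6 (adjusted p = 0.057), and its relative Rbl1 had 1.15 and 0.53. Cdk6, a partner of the D cyclins, had 1.15 and 1.45 (adjusted p = 0.061), against -0.19 and -0.39 for Cdk4. Cdk2, the kinase bound by cyclin E, had 0.49 and 0.66. Cdkn2d, the remaining INK4 inhibitor, had -1.42 and -0.88 (adjusted p = 0.084). E2f1 had -0.05 and -0.80, Skp2, which targets p27 for degradation, 0.84 and 0.19, and Cks1b, its cofactor, 0.22 and -0.32. Ccne2, the other cyclin E gene, was well above background on fewer than 2 arrays and was not tested. The number of partners past the threshold was 16 with normexp background correction, 14 with the filter on all 4 arrays and 11 with an intensity trend, and 0 without the line as a block, without a filter or with dim values raised to a floor.

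Of 28 tested genes in the list of p53 and its targets, 4 rose, 3 fell and 21 did not pass, where 3.88% of all tested genes rose and 5.08% fell. Epha2, Plk2, Sesn2 and Gadd45a rose, by 2.77, 2.83, 2.20 and 2.18, and Pml, Sesn1 and Ccng1 fell, with fitted changes of -2.00, -1.70 and -1.48 (limma adjusted p from 0.037 to 0.050). Trp53 itself had changes of -0.13 in K5 and -0.39 in K6, and Mdm2, its negative regulator and target, 0.37 and 0.92, neither past the threshold. Over the 28 genes the changes had medians of 0.46 (K5) and 0.53 (K6).

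Of 27 tested genes listed as TGF-beta genes or as upstream of CDK inhibitors, 1 rose and 26 did not pass. Of all tested genes, 3.88% rose and 5.08% fell. Whether any listed gene acts on the inhibitors in these cells was not tested. Gdf15, a secreted stress factor, read -1.07 and 3.28 in control and halofuginone K5 and 0.61 and 4.76 in K6, and rose by 4.25 (SE 0.26, 2 lines, limma adjusted p = 0.036). Smad7, the inhibitory SMAD, had 1.22 in K5 and 2.21 in K6 (adjusted p = 0.062), Smad3 0.44 and 0.25, and Klf4, a transcription factor that acts on Cdkn1a, 0.41 and 1.06. Over the 27 genes the changes had medians of 0.31 (K5) and 0.63 (K6).

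**Figure D4:**
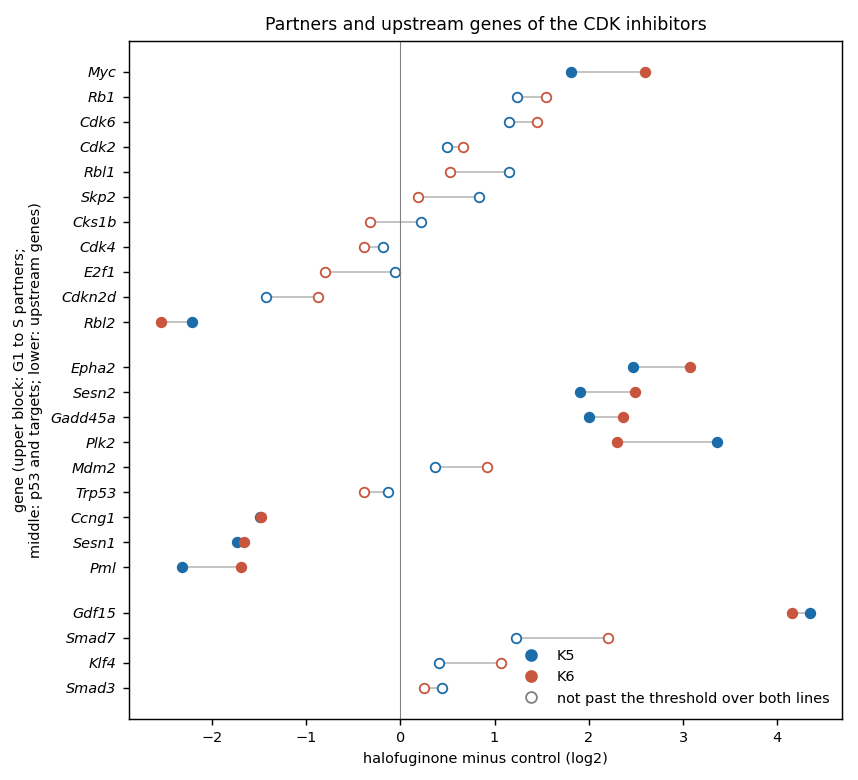
Halofuginone minus control (log2, horizontal axis) in K5 (blue) and K6 (red) for the named G1 to S partners (upper block), p53 and its targets (middle block) and upstream genes (lower block). Filled points mark genes past the threshold in the fit over both lines. Among the filled genes both lines lie on the same side of 0, as the fit requires.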

How the data were processed

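RNA of 4 samples was made into Cy3-labelled target for Agilent arrays read in 1 colour, per the labels' protocols. The authors' deposited intensity came from Feature Extraction 10.7.1.1, per the file headers (the submitters' processing notes name 9.5.1.1), after background subtraction and detrending, and the dimmest spots hold surrogates. Deposited flags give detection, saturation and outliers. The deposited value table, also intensity, has columns with the same median of 32.97 and served as an alternative. Coordinates are those of the files, on mm9 (NCBI37).

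Spots of a probe were averaged without control spots and outliers. The log2 processed signal minus the 75th percentile of the array's spots was used, with 1 probe a gene, the brightest. Genes detected on 2 or more arrays entered limma 3.58.1 in R 4.3.3 (lmFit, eBayes; line and treatment as terms; Benjamini-Hochberg over all tested genes, threshold 0.05), and the script was tested on simulated data. The fit has 1 residual and 2.97 prior degrees of freedom, and its residual reflects how far K5 and K6 changed unequally. With no separate cultures named, p-values measure only the spread between these samples, which may be technical. The numbers 5 and 6 name the cells and so pair the samples: over tested genes the K6 minus K5 difference correlated at r = 0.50 between conditions. All arrays lay on 1 slide. Alternatives covered background correction, scaling, filter, probe rule, variance trend, block and dim values.

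Members and lists were chosen with earlier results of these data known. Besides the 10 genes, those named are list genes past the threshold for halofuginone, a set fixed by name (Cdkn2d, Ccne2, Cdk2, Cdk4, Cdk6, Rb1, Rbl1, E2f1, Skp2, Cks1b, Myc, Trp53, Mdm2, Ccng1, Klf4, Smad3, Smad7) and the 6 genes nearest to Cdkn1a, of which 1 is not reported here.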

Additional observations from a re-analysis of the deposited data

Results flagged for a closer look

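In 4 of the genes named, the change had opposite signs in K5 and K6, a difference that was not tested because no condition has a second array in either line. K6 less K5, the gap between changes was -1.95 for Ccne1 (1.32 in K5 and -0.63 in K6) and -0.79 for Cdkn2b (0.73 and -0.06). It was -0.54 for Cks1b (0.22 and -0.32) and 4.52 for 1700110K17Rik (-0.40 and 4.12), which was named for its likeness to Cdkn1a. The control K6 value of 1700110K17Rik, -4.06, lay near that array's lowest signal well above background, -4.25.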

How the results depend on the processing

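The Cdkn1a change ranged from 0.09 to 0.22 in K5, from 3.86 to 4.21 in K6 and from 3.67 to 4.05 for their difference over the settings tried at its brightest probe. At the probe for NM_001111099, below background on all arrays, values as read were 0.0817 in K6 and 0.83 for the difference, and at that for ENSMUST00000122348, equally dim, 1.45 and 1.71, none of them a measured change. The count of genes past the threshold for halofuginone, 1710, became 5489 with normexp, 4012 with the filter on all 4 arrays and 4204 with a trend. It was 0 (limma) with dim values raised to a floor (5863 at an unadjusted p under 0.05), without a filter (15048) and without the replicate block (4491). For K6 against K5, 33 became 1316 with normexp, 151 with quantile normalization, 296 with median centring, 152 with the authors' value table, 305 with the filter on all 4 arrays, 304 with a trend and 167 with the 75th percentile over probes, a setting added after seeing the data. It was 0 with the mean over probes (2892), dim values raised (2500), no filter (3655) and no replicate block (798). The count of G1 to S partners, 2, became 16 with normexp, 14 with the filter on all 4 arrays and 11 with a trend, and 0 with dim values raised (14 at an unadjusted p under 0.05), no filter (16) and no replicate block (12).

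The line difference of Cdkn2c, 0.02, was -0.0288 with normexp and -0.0644 with median centring (cause not tested). Among the other 9 genes no fitted change or line difference turned its sign under a setting that gave a test. The gap between the changes, which has no test, did turn its sign in Ccnd2 and Cdkn1b. For Ccnd2 it was 0.09, and -0.13 with quantile normalization and with the authors' value table. For Cdkn1b it was 0.39, and -0.03 with the mean over probes. For Ccnd3 it shrank from 0.22 to 0.01 with quantile normalization and with the authors' value table. Leaving out a line leaves no residual degree of freedom, so it gives a value without a test, the change in the other line. No member had replicate spots, so the number of arrays and of spots limits every value, and dim genes in controls are bounded by detection limits of -4.17 and -4.25 there against -4.92 and -5.01 on halofuginone arrays.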
